A study of Mus musculus with 8 samples.

Results

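The ADAM genes encode membrane-anchored proteins with a metalloprotease-like domain and a disintegrin domain. The set described here holds every gene whose name on the array is Adam followed by a number, with an optional final letter. The secreted ADAMTS relatives were left out. 28 of the 27670 genes on the array met this rule, through 50 probes. 23 of the 28 had a probe that passed the filter on dim signal, against 16969 of all genes.

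The samples were areas rich in Sertoli cells, the somatic nurse cells of the testis, cut by laser from the intermediate layer of the seminiferous epithelium of C57BL/6J male mice aged 21 weeks. 4 mice had received di-(2-ethylhexyl)-phthalate (DEHP), a plasticiser, in corn oil by daily gavage at 200 mg/kg for 21 days. 4 mice had received corn oil alone (vehicle). Each DEHP mouse was set against 1 vehicle mouse on 2 two-colour arrays with the dyes exchanged, which gave 8 arrays and 4 pairings. Pairing 1 held DEHP mouse 1 and vehicle mouse 2, pairing 2 held DEHP mouse 2 and vehicle mouse 3, pairing 3 held DEHP mouse 3 and vehicle mouse 4, and pairing 4 held DEHP mouse 4 and vehicle mouse 1. The extraction text of the labels names Leydig cells as the captured cells, whereas the tissue label names Sertoli-rich areas. 15 of 16 Sertoli markers passed the filter, but so did 13 of 13 round spermatid and 12 of 12 elongating spermatid markers. Of 8 Leydig markers, Star, Cyp17a1, Hsd3b1 and Insl3 were above background in all 16 channels, while Cyp11a1, Hsd3b6, Lhcgr and Hsd17b3 did not pass. 8 of 8 macrophage and 5 of 6 peritubular myoid markers also passed. The captured areas carried RNA with markers of germ, Leydig, macrophage and myoid cells, and in such bulk samples fewer cells of a type and less RNA per cell cannot be told apart.

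ADAM proteins are made as inactive precursors, and a proprotein convertase removes their prodomain on the way to the cell surface. The widely expressed proteases, such as Adam10 and Adam17, then cut ligands, receptors and adhesion molecules off the membrane. Many rodent ADAMs are made only in germ cells and several have lost the catalytic site. They are carried on sperm as complexes, of which fertilin (Adam1b with Adam2) and the complexes of Adam3 are the best known, and they act in sperm passage into the oviduct and in sperm-egg contact. Members were placed by this textbook knowledge into 15 germ-cell genes, 9 widely expressed genes, 3 neural genes (Adam11, Adam22 and Adam23, which have no protease activity) and the epididymal Adam7.

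The array reads each gene through 60-base probes, and several ADAM genes are close copies of one another, so the probes that the results turn on are given first. Adam32, whose mean ratio lay farthest from 1, and Adam2, the β chain of fertilin, are each read by a single probe that lists no other gene. Adam1b is read by 3 probes. 1 of them lists identifiers of both Adam1a and Adam1b, 1 lists Adam1b alone, and the brightest lists a cDNA clone with no RefSeq identifier of either gene, so only its first 30 bases are shown. 1 probe of Adam26a lists Adam26a, Adam26b and Adam34, and 1 probe of Adam25 lists Adam25 and Adam39. No part is singled out, so all letters are in lower case, 5′ to 3′. Positions are those of the array's design, on mouse build mm7.
Adam32, chr8:23619897-23619956, minus strand: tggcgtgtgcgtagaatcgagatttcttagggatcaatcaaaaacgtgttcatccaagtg
Adam2, chr14:60890159-60890218: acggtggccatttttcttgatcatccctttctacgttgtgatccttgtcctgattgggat
Adam1b brightest probe, first 30 bases, probe at chr5:120734286-120734345, minus strand: gatattcttgttcttgtatctttgggctga
Adam1b and Adam1a shared probe, chr5:120736236-120736295, minus strand: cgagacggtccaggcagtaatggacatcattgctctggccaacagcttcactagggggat
Adam1b own probe, chr5:120735259-120735318, minus strand: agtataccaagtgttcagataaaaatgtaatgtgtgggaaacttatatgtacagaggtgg
Adam26a, Adam26b and Adam34 shared probe, chr8:42354376-42354435, minus strand: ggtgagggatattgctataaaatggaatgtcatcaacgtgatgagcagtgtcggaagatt
Adam25 and Adam39 shared probe, chr8:39544932-39544991, plus strand: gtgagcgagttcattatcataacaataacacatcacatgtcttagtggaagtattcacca

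Germ-cell members were the part of the family best seen in these captures. All 15 of them, through all 24 of their probes, were well above background in 16 of 16 channels (8 arrays, 2 dyes). Of the 9 widely expressed members, 7 passed the filter. Adam8, Adam9, Adam15 and Adam17 did so in 16 channels, Adam28 in 14, Adam33 in 12 and Adam19 in 5. Adam10, the protease that cuts Notch receptors, and Adam12 were well above background in 0 of 16 channels. Among the neural members, Adam11 was seen in 16 channels, Adam22 in 0 and Adam23 in at most 1. Adam7, whose product is known from the epididymis, was seen in 2.

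The adjusted test for DEHP against vehicle was passed by no ADAM gene. Values are log2 ratios of DEHP over vehicle after loess normalisation, averaged over the 2 dye-swapped arrays of a pairing and over the 4 pairings (mean ± SD, n = 4), with the brightest kept probe standing for a gene. limma's moderated test with Benjamini-Hochberg adjustment over 22975 probes called 0 of 23 members and 0 of 16969 genes (0%). The smallest adjusted p was 0.903. At an unadjusted limma p under 0.05 stood 1 of 23 members, Adam1b, against 4.8% of all genes. The 4 ratios were all below 0 for 3 of 23 members (Adam1b, Adam32 and Adam19), against 6.89% of all genes. Adam19 was well above background in 1 DEHP and 4 vehicle channels, so it was kept only through the vehicle group, where it was the higher, and its count here supports nothing. They were all above 0 for 2 of 23 (Adam11 and Adam28), against 6.69%. Normalised signals of the 4 DEHP mice and the 4 vehicle mice overlapped for every one of the 23 members. They were apart for only 1.77% of all genes, so their overlap in 23 genes does not set the members apart. The 95% confidence interval of each of the 23 ratios, unadjusted for the number of genes, lay within a 2-fold difference in either direction. The same held for 16915 of all 16969 genes, so it is no trait of the ADAM members. The plot of members by pairing shows the 4 ratios of each gene.

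**Figure D1:**
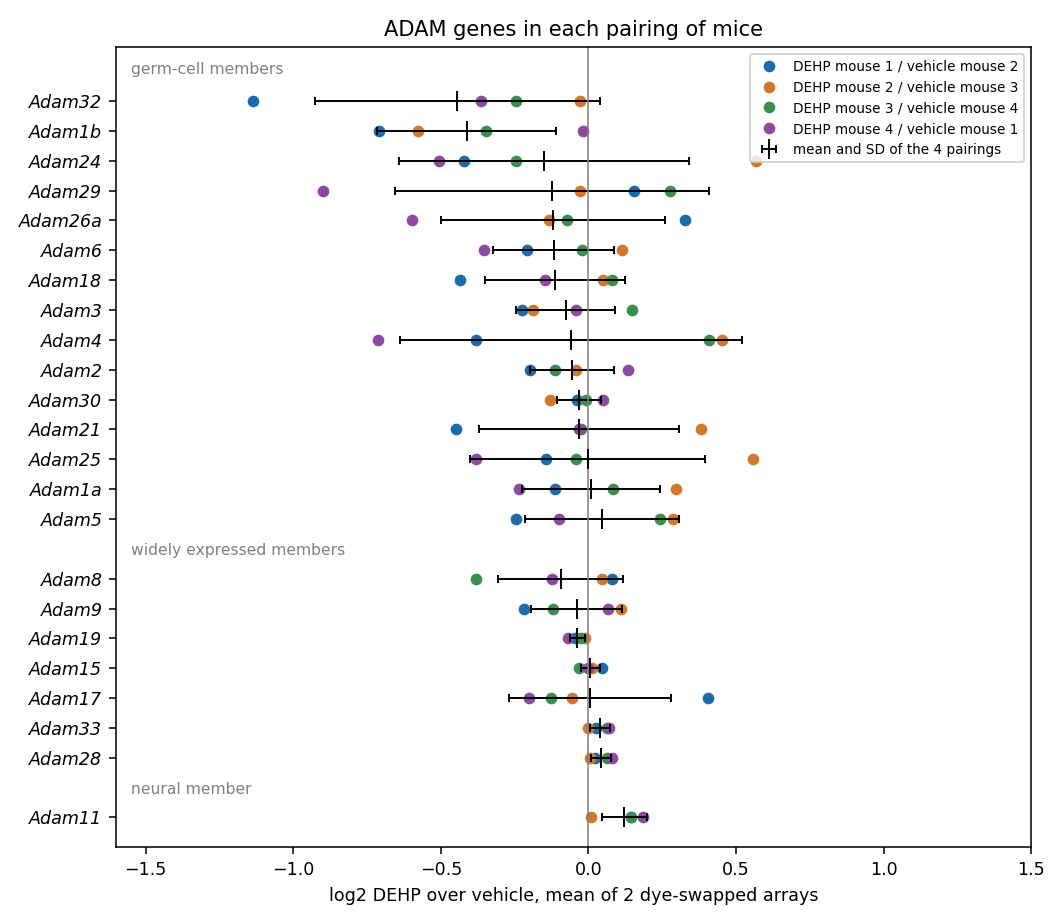
Log2 ratio of DEHP over vehicle for the 23 ADAM genes with a kept probe, with 1 point for each of the 4 pairings and a black bar for their mean and SD. Points of germ-cell members other than Adam1b and Adam32 lie on both sides of 0, most widely apart for Adam4 (SD 0.58), Adam29 (SD 0.53) and Adam24 (SD 0.49). Those of Adam15, Adam19, Adam28 and Adam33 lie at most 0.08 from 0.

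Fertilin is made of an α chain (Adam1a or Adam1b) and the β chain Adam2. Adam1b, the α chain found on sperm, had log2 ratios of -0.71, -0.58, -0.35 and -0.017 in pairings 1 to 4. Its mean of -0.41 ± 0.30 is a 0.751-fold level in DEHP mice (95% interval 0.602 to 0.938, limma unadjusted p = 0.021, adjusted p = 0.903). Normalised log2 signals were 13.92, 13.82, 14.30 and 14.18 in DEHP mice 1 to 4 and 14.20, 14.63, 14.40 and 14.65 in vehicle mice 1 to 4. Only vehicle mouse 1 came down to the levels of DEHP mice 3 and 4. The other 2 probes of the gene were much dimmer and did not repeat these values by pairing. The probe shared with Adam1a had ratios of 0.29, 0.036, 0.035 and -0.77 in pairings 1 to 4 (mean -0.10 ± 0.46). The probe that lists Adam1b alone had -0.097, -0.021, -0.0027 and 0.26 (mean 0.035 ± 0.16). Averaged over its 3 probes, the ratio of Adam1b was -0.16.

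Adam1a, the α chain that stays in the endoplasmic reticulum and is needed for the surface display of Adam3, had ratios of -0.11, 0.30, 0.084 and -0.24 (mean 0.0080 ± 0.23). Adam1a and Adam1b are direct neighbours on chromosome 5, with probes at chr5:120752976-120753035 and chr5:120734286-120734345, and their ratios had opposite signs in pairings 2 and 3. Adam2, which pairs with either α chain, varied less, with ratios of -0.20, -0.043, -0.11 and 0.14 (mean -0.055 ± 0.14). Signals of Adam2 were 13.90, 13.68, 13.80 and 14.00 in DEHP mice 1 to 4 and 13.86, 14.10, 13.73 and 13.91 in vehicle mice 1 to 4, and the groups overlapped over most of their range.

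**Figure D2:**
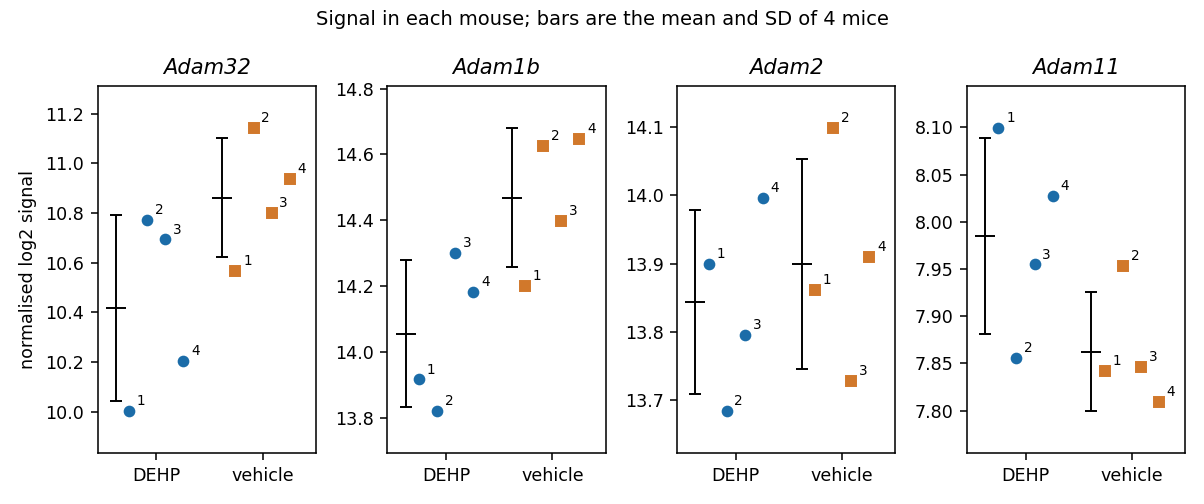
Normalised log2 signal of Adam32, Adam1b, Adam2 and Adam11 in each of 4 DEHP mice (circles) and 4 vehicle mice (squares), numbered as in the labels, with bars for the mean and SD; each panel has its own axis. The DEHP mean lies below the vehicle mean for Adam32 (10.42 against 10.86) and Adam1b (14.06 against 14.47) and above it for Adam11 (7.98 against 7.86), and the mice of both groups overlap in every panel.

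4 germ-cell members, Adam18, Adam3, Adam5 and Adam32, and the widely expressed Adam9 follow one another on chromosome 8 with no other protein-coding gene between them in RefSeq (GRCm38.p6, used for order only). Their probes run from chr8:23388217 to chr8:23703155 on mm7. Adam32 had the lowest ratio of all 23 members, with -1.14, -0.028, -0.24 and -0.36 in pairings 1 to 4. Its mean of -0.44 ± 0.48 is 0.735-fold (95% interval 0.522 to 1.04, limma unadjusted p = 0.069, adjusted p = 0.903). Signals were 10.00, 10.77, 10.69 and 10.20 in DEHP mice 1 to 4 and 10.57, 11.14, 10.80 and 10.94 in vehicle mice 1 to 4. DEHP mice 1 and 4 were the lowest, while DEHP mice 2 and 3 lay above vehicle mouse 1. Without pairing 1 the mean was -0.21.

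The neighbours of Adam32 had mean ratios nearer to 0. Adam3 (cyritestin), without which sperm fail to enter the oviduct, had -0.23, -0.19, 0.15 and -0.043 (mean -0.077 ± 0.17). Adam18 had -0.44, 0.050, 0.080 and -0.15 (mean -0.11 ± 0.24). Adam5, which is carried on sperm with Adam3, had -0.24, 0.29, 0.24 and -0.10 (mean 0.046 ± 0.26). Adam9, a protease of many tissues at the end of the row, had -0.22, 0.11, -0.12 and 0.067 (mean -0.040 ± 0.15). Pairing 1 was the lowest of the 4 for all 5 genes of this stretch, whereas pairings 2 to 4 gave no common order. The same pairing was also the lowest for Adam1b, Adam2 and Adam21, which lie on other chromosomes.

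The remaining germ-cell members include the testases Adam24, Adam25 and Adam26a, which are proteases of the germ line, and Adam4, Adam6, Adam21, Adam29 and Adam30. Adam24, the testase of mature sperm, had ratios of -0.42, 0.57, -0.24 and -0.51 (mean -0.15 ± 0.49), so pairing 2 ran against the other 3. Adam25, its direct neighbour on chromosome 8 (probes from chr8:39472255 to chr8:39546496), had -0.14, 0.56, -0.043 and -0.38 (mean -0.0025 ± 0.40), with pairing 2 again apart. Adam26a, further along the chromosome, had 0.33, -0.13, -0.074 and -0.60 (mean -0.12 ± 0.38).

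Adam29 had ratios of 0.15, -0.029, 0.28 and -0.90 (mean -0.12 ± 0.53), so its mean was set by pairing 4 and was 0.13 without it. Adam4 had -0.38, 0.45, 0.41 and -0.71 (mean -0.059 ± 0.58), with 2 pairings on each side of 0. Adam21, separated from Adam4 by a single protein-coding gene on chromosome 12, had -0.45, 0.38, -0.025 and -0.031 (mean -0.031 ± 0.34). Adam6, now named Adam6a and lying in the immunoglobulin heavy-chain locus (probe at chr12:111066802-111066861), takes part in the sperm complexes of Adam2 and Adam3. It had -0.21, 0.11, -0.021 and -0.35 (mean -0.12 ± 0.21), the third smallest p among germ-cell members (limma unadjusted p = 0.244). Adam30 had a mean of -0.032 ± 0.076 by its brightest probe. Its dimmer probe gave -0.22 ± 0.43. The authors' deposited log2 ratios, which held no value for the brightest probe of Adam30, gave -0.62 for the dimmer one.

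As a group, 13 of 15 germ-cell members had a mean ratio below 0, whereas 49.9% of all genes lay above 0, and their median was -0.077, against -8.4e-05 over all genes. This direction depended on the scaling: with each array centred on its median in place of loess, 9 of 15 lay above 0 and the median was 0.091. Over pairings 1 to 4 the median was -0.23, 0.050, -0.021 and -0.24, a mean of -0.11 ± 0.14. Pairings 1 and 4 gave the lower values, and the median of the mean ratios was -0.028 without pairing 1 and -0.033 without pairing 4, against -0.17 without pairing 2. The mean over pairings was smaller than its SD.

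The spread between pairings is given next as a description, with no test. The SD over the 4 pairings had a median of 0.30 across the 15 germ-cell members, against 0.16 over all genes and 0.19 over the 14004 genes above background in all 16 channels. The 4 widely expressed members seen in all 16 channels had a median SD of 0.18. Among other germ-cell lists the median SD was 0.36 for round spermatid markers, 0.36 for elongating spermatid markers and 0.21 for spermatocyte markers. It was 0.24 for the genes of sperm ADAM maturation described below. A wide spread was therefore not particular to the germ-cell ADAM genes. The dye-swapped arrays of a pairing gave similar ratios for the 23 members, with correlations across members of 0.898, 0.833, 0.762 and 0.862 in pairings 1 to 4. Over all 22975 kept probes these correlations were 0.717, 0.539, 0.675 and 0.706. Both are descriptions across genes, which are not independent replicates, and the arrays of a swap share the same 2 RNA samples.

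**Figure D3:**
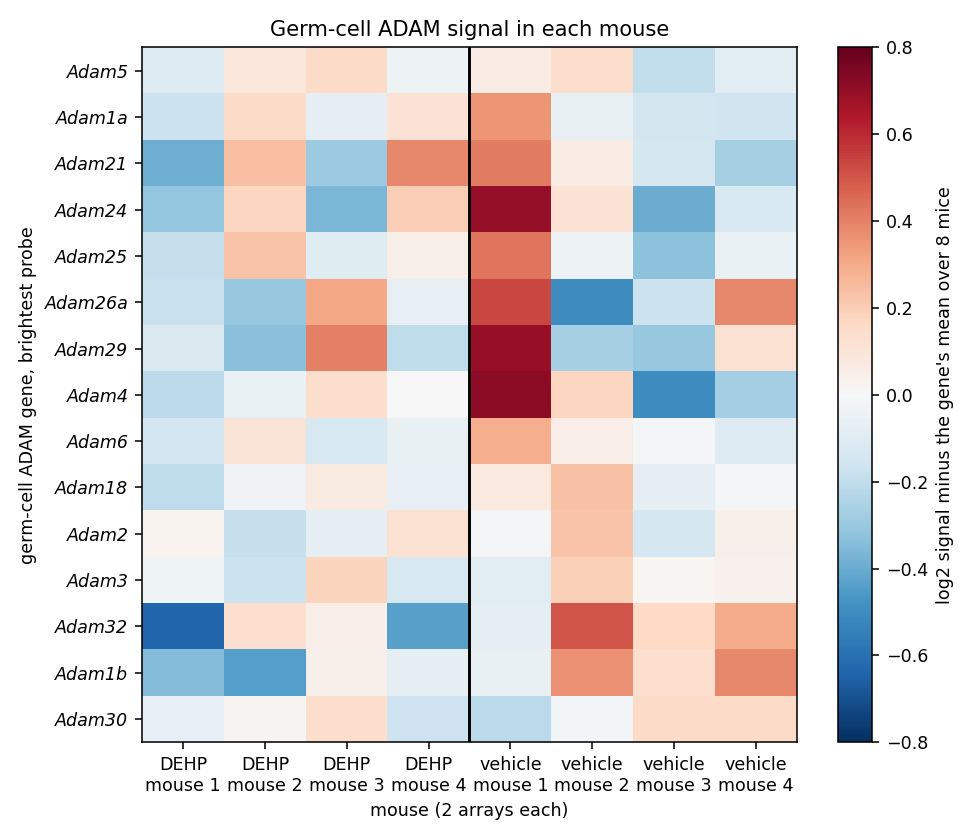
Normalised log2 signal of the 15 germ-cell members in each mouse after subtraction of the gene's mean over 8 mice; red is above and blue below that mean, and genes are ordered by the mouse with the highest signal. Vehicle mouse 1 is the reddest column for 8 genes and vehicle mouse 2 for 4, while blue cells are frequent in DEHP mouse 1 and vehicle mouse 3.

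In single mice, 8 of the 15 germ-cell members had their highest signal in vehicle mouse 1: Adam1a, Adam4, Adam6, Adam21, Adam24, Adam25, Adam26a and Adam29. The same mouse was highest for 20.5% of all genes. Adam18, Adam2, Adam3 and Adam32 were highest in vehicle mouse 2, as were 14.8% of all genes. Adam1b and Adam30 were highest in vehicle mouse 4 (10.8% of all genes), and Adam5 in DEHP mouse 3 (14.7% of all genes). DEHP mouse 1 was the lowest for 5 of the 15, DEHP mouse 2 for 4 and vehicle mouse 3 for 4. These mice were the lowest for 11.6%, 8.45% and 6.53% of all genes. For Adam24 the levels were 12.62, 13.10, 12.56 and 13.12 in DEHP mice 1 to 4 and 13.63, 13.04, 12.53 and 12.80 in vehicle mice 1 to 4, so vehicle mice held both the highest and the lowest value. Adam4 did likewise, with 11.86, 12.02, 12.21 and 12.07 in DEHP mice and 12.79, 12.24, 11.57 and 11.80 in vehicle mice. The median of the 15 centred signals was 0.29 in vehicle mouse 1, 0.11 in vehicle mouse 2, -0.14 in vehicle mouse 3 and -0.0077 in vehicle mouse 4, and -0.18, 0.020, 0.053 and -0.061 in DEHP mice 1 to 4.

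Markers of spermatid stages differed between the same mice. Round spermatid markers (13 of 13 measured) had a median centred signal of 0.33 in vehicle mouse 1 and of -0.19 to 0.026 in the other vehicle mice, against -0.15 to 0.039 in DEHP mice. Elongating spermatid markers (12 of 12 measured) had a median of 0.28 in vehicle mouse 2 and of -0.20 to -0.063 in the other vehicle mice, against -0.16 to 0.22 in DEHP mice. By pairing, the median ratio of round spermatid markers was 0.098, 0.16, -0.087 and -0.34, and that of elongating spermatid markers -0.42, 0.077, 0.12 and 0.30. The germ-cell ADAM median was below 0 in pairing 4, where round spermatid markers were below and elongating spermatid markers above 0. It was also below 0 in pairing 1, where the marker lists were the other way round. This median pools members that were highest in different mice. Sertoli markers (15 of 16 measured) had medians of 0.090, 0.11, -0.070 and 0.022 and spermatocyte markers (12 of 13 measured) of -0.0086, 0.084, -0.051 and -0.049. No spermatid marker was below the filter. The part of germ-cell content in the ADAM ratios was not tested.

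**Figure D4:**
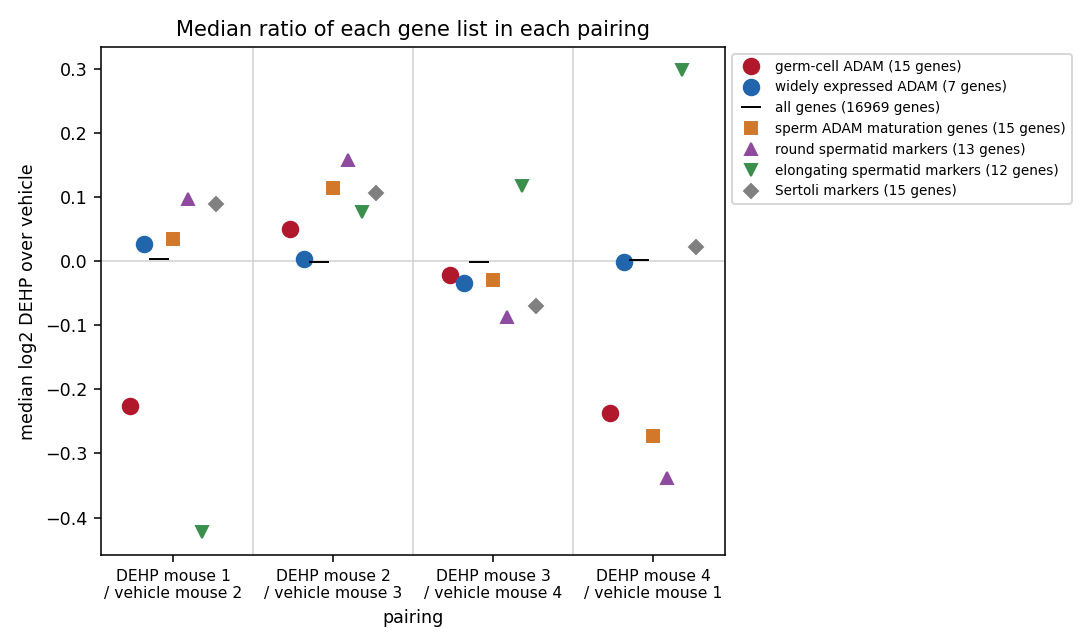
Median log2 ratio of DEHP over vehicle in each of the 4 pairings for germ-cell ADAM genes, widely expressed ADAM genes, all genes, genes of sperm ADAM maturation and 3 marker lists. In pairing 4 the germ-cell ADAM median is -0.24, that of round spermatid markers -0.34 and that of elongating spermatid markers 0.30, and in pairing 1 they are -0.23, 0.098 and -0.42; centring each array on its median instead of loess turns the germ-cell median of the mean ratios to 0.091.

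The widely expressed proteases showed no shared direction, with 4 of 7 mean ratios above 0 and a median of 0.0060. Their pairing medians were 0.027, 0.0045, -0.033 and -0.00094, against an SD between pairings of 0.025. Adam17, which releases tumour necrosis factor and growth factor ligands, had ratios of 0.41, -0.055, -0.13 and -0.20 (mean 0.0060 ± 0.27), with DEHP mouse 1 as the highest mouse. Adam15, a protease with a role in cell contact, had 0.044, 0.014, -0.033 and -0.00094 (mean 0.0060 ± 0.032). Adam8, known from leukocytes, had 0.081, 0.048, -0.38 and -0.12 (mean -0.094 ± 0.21, limma unadjusted p = 0.349).

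Adam28 had 0.024, 0.0045, 0.064 and 0.080 (mean 0.043 ± 0.035, limma unadjusted p = 0.342), and Adam33 had 0.027, -0.0030, 0.064 and 0.070 (mean 0.040 ± 0.034, limma unadjusted p = 0.378). Adam19 had -0.044, -0.013, -0.024 and -0.070 (mean -0.038 ± 0.025). These 3 genes were dim, with 5 to 14 of 16 channels above background. The background offset of 50 pulls ratios of dim probes towards 0, so the small spread of these genes is no measure of precision. The same limit holds for Adam15, which was seen in 16 channels but had a mean log2 intensity of 7.32, against 7.22 for Adam28. The neural member Adam11, which binds secreted LGI proteins at synapses, had 0.15, 0.010, 0.15 and 0.19 (mean 0.12 ± 0.077, limma unadjusted p = 0.055, adjusted p = 0.903). Its signals were 8.10, 7.86, 7.95 and 8.03 in DEHP mice 1 to 4 and 7.84, 7.95, 7.85 and 7.81 in vehicle mice 1 to 4, and DEHP mouse 2 lay among the vehicle mice. Its other 2 probes had mean ratios of 0.043 and 0.0018.

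The difference between the median of germ-cell and that of widely expressed members was -0.25, 0.046, 0.012 and -0.24 in pairings 1 to 4 (mean -0.11 ± 0.16), with 2 pairings on each side of 0. Taken on the mean ratios it was -0.083 with loess and 0.086 when each array was centred on its median instead. Most germ-cell members were brighter than the widely expressed ones, whose ratios the background offset pulls more towards 0.

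For 10 members more than 1 probe was kept, and for 4 of them (Adam1b, Adam25, Adam26a and Adam33) at least 1 probe had the opposite sign to the brightest. The Adam25 probe shared with Adam39 had a mean of 0.12, against -0.0025 for the brightest probe. The Adam26a probe shared with Adam26b and Adam34 had -0.13 and a probe shared with Adam34 0.13, against -0.12 for the brightest. Signal from such paralogs cannot be separated on shared probes. By slide, which was also dye orientation, 9 of 23 members changed sign.

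**Figure D5:**
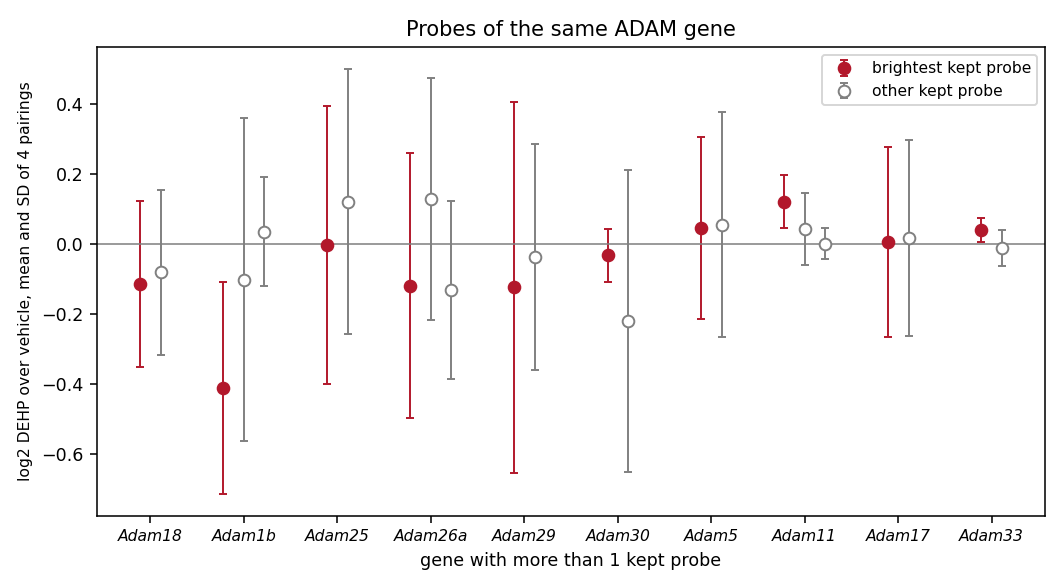
Mean log2 ratio of DEHP over vehicle, with the SD of 4 pairings, for every kept probe of the 10 ADAM genes that had more than 1; filled points are the brightest probe. Adam1b is the gene whose brightest probe (-0.41) lies farthest from its others (-0.10 and 0.035).

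Sperm ADAMs reach the cell surface through chaperones and partner proteins, and the loss of several of these in mice removes Adam3 from sperm. All 15 genes of this list were measured. By limma 0 of 15 passed the adjusted test, 3 had an unadjusted p under 0.05 (against 4.8% of all genes), and the list's median was -0.019. Clgn (calmegin), the chaperone that assembles fertilin, had ratios of -0.54, -0.026, -0.43 and -0.33 (mean -0.33 ± 0.22, limma unadjusted p = 0.017, adjusted p = 0.903). Clgn was the only gene of the list below 0 in all 4 pairings (6.89% of all genes were), while Cmtm2a and Cmtm2b were above 0 in all 4 (6.69% of all genes). Cmtm2b, which with Cmtm2a is needed for the placement of Adam3, had a mean of 0.21 ± 0.17, and Canx, the calnexin found in all cells, -0.19 ± 0.15. Calr3, a calreticulin of the testis, had -0.26, 0.40, 0.40 and -0.61 (mean -0.019 ± 0.50). Pdilt, a disulphide isomerase that works with it, had 0.050, 0.32, -0.16 and -0.63 (mean -0.10 ± 0.40). Tex101, a surface protein of germ cells, had 0.59, 0.067, -0.17 and -0.74 (mean -0.064 ± 0.55), and Ace, whose testis form acts on Adam3, had 0.32, 0.14, -0.14 and 0.27 (mean 0.15 ± 0.21).

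Of the convertases that remove the ADAM prodomain, 4 of 5 were measured and all 4 means were below 0 (median -0.061). None passed the adjusted limma test, and 0 had an unadjusted p under 0.05. Pcsk4, the convertase of germ cells, had -0.092 ± 0.043 and Furin had -0.18 ± 0.26. Both were below 0 in all 4 pairings, as were 6.89% of all genes. Among regulators of Adam10 and Adam17 transport, 7 of 10 were measured (median -0.0034, limma calls 0 adjusted and 0 unadjusted), with 0.051 ± 0.049 for Pacs2 and -0.11 ± 0.40 for Frmd8. All 5 metalloprotease inhibitors were measured (median -0.019, 0 adjusted and 0 unadjusted). Timp1, a secreted inhibitor, had 0.20, 0.010, -0.48 and -0.13 (mean -0.10 ± 0.29), and Reck, a membrane inhibitor, had -0.070 ± 0.059.

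Proteins cut by Adam10 and Adam17 were represented by 24 of 34 listed genes, with 12 above and 12 below 0 and a median of 0.00091. limma called 0 after adjustment and 2 at an unadjusted p under 0.05, against 4.8% of all genes: Notch1, a receptor, with -0.11, -0.061, -0.36 and -0.29 (mean -0.20 ± 0.14), and Nectin3, an adhesion protein by which spermatids bind Sertoli cells, with -0.055, -0.24, -0.088 and -0.19 (mean -0.14 ± 0.087). Integrins and egg partners of the disintegrin domain were measured for 5 of 7 genes (median -0.016, 0 adjusted and 0 unadjusted). Itga6 had -0.080 ± 0.11, and Cd9, a tetraspanin, swung from 0.47 in pairing 1 to -0.84 in pairing 3 (mean -0.27 ± 0.60). Of the ADAMTS and matrix metalloprotease relatives 5 of 13 were measured (median -0.020, 0 adjusted and 0 unadjusted), with 0.17 ± 0.14 for Adamts2 and -0.15 ± 0.32 for Mmp14. Among the genes named from these related lists, Ace, Pacs2 and Cd9 had other kept probes whose mean ratios were all opposite in sign to the brightest.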

How the data were processed

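RNA amplified from each mouse was hybridised to Agilent 2-colour arrays, 8 in all, on 2 slides that differ in dye orientation. Per the file headers, the authors read the spots with Feature Extraction 9.5.1.1, and the deposited mean and background intensity of each channel were used here. The authors also deposited log2 ratios, for 16095 spots per array. Their direction was settled against the scanner values (correlations of 0.943 to 0.972 in size) as DEHP over vehicle, and their normalisation is not given in the sources used here, although the submitters' processing notes name limma. Precision is limited by the small number of arrays. As an alternative, the scanner's own log10 ratio of red over green, deposited in the same files, was turned to log2.

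Intensities were background-corrected with limma 3.58.1 in R 4.3.3 (normexp, offset 50), normalised by loess within each array and, for signals by mouse, by Aquantile between arrays. Control spots had weight 0 and outlier spots were left out. Signals of a mouse are means of its 2 arrays. A probe was kept if 4 or more of the 8 DEHP channels, or of the 8 vehicle channels, were well above background, which held for 22975 of 41174. 49.8% to 59.5% of spots per channel were well above background. Dye-swapped arrays of the same 2 RNAs were averaged, and limma tested the 4 pairing means against 0 over all kept probes, with Benjamini-Hochberg adjustment. The labels give mice separate numbers, so p-values measure the spread between pairings of mice. Pairs are the mice hybridised together, as the array design sets them. Deviations of mice with the same number had correlations of -0.35 to -0.02, against 0.041 to 0.30 for mice hybridised together. The latter share arrays, so these values cannot settle whether mice with the same number were matched. The fit was tested on simulated pairing means with 200 changed probes, of which 46% were recovered at a log2 change of 0.5 and 88% at 1. Changes of the smaller size were thus often missed, and the absence of calls is to be read with that limit. Every member was named, with the values of 4 pairings for the sperm-surface and sheddase members and the 3 smallest p per class. Related lists are named by their 2 smallest p, with Clgn, Calr3, Pdilt, Tex101 and Ace in addition. Values of other members and genes were added after they were seen. The members and lists were chosen with earlier results of these data known. The settings tried otherwise were background correction, centring, filter, probe averaging, slide, pairing, array weights, the deposited ratios and leaving out each pairing.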

Additional observations from a re-analysis of the deposited data

How the results depend on the processing

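The number of probes and of ADAM members called was 0 under all alternatives, and with the pairing as a replicate block beside a slide term the adjusted limma p of Adam1b was 0.594 (0.443 to 0.999 over its alternatives); without a replicate block, with the 8 mice unpaired, the count was also 0. Direction was less stable, and the cause was not tested. Median centring in place of loess gave a germ-cell median of 0.091, a difference between germ-cell and widely expressed medians of 0.086, and ratios above 0 for Adam18 (0.091), Adam2 (0.12), Adam21 (0.092), Adam25 (0.15), Adam3 (0.14), Adam30 (0.11) and Adam4 (0.068). Array weights turned Adam21 (0.11), Adam24 (0.14), Adam25 (0.23), Adam4 (0.18) and Adam9 (0.0039). Slide 1 alone turned Adam21 (0.13), Adam25 (0.097), Adam4 (0.098), Adam5 (-0.0065), Adam15 (-0.055), Adam19 (0.020) and Adam9 (0.042), and slide 2 alone Adam1a (-0.010) and Adam2 (0.022). Without background correction Adam1a (-0.0017), Adam17 (-0.015) and Adam19 (0.011) turned, and with the scanner's processed log ratio Adam25 (0.0088), Adam17 (-0.019) and Adam9 (0.0022). With the authors' deposited log2 ratios the widely expressed median, over 3 members, was -0.022, and Adam25 (0.036) and Adam17 (-0.022) turned. The largest move there was that of Adam30, to -0.62, where it was read by its dimmer probe. That probe had -0.22 with the processing used here, so the change of probe alone did not give this value. Averaging all probes of a gene turned Adam25 (0.060). Leaving out each pairing in turn gave germ-cell medians of -0.17 to -0.028, widely expressed medians of -0.0069 to 0.019 and differences of -0.17 to -0.021. Under it the ratios ran from -0.088 to 0.089 for Adam1a, -0.17 to 0.11 for Adam21, -0.19 to 0.12 for Adam25, -0.27 to 0.040 for Adam26a, -0.26 to 0.13 for Adam29, -0.059 to 0.0012 for Adam30, -0.23 to 0.16 for Adam4, -0.034 to 0.14 for Adam5, -0.0069 to 0.019 for Adam15, -0.13 to 0.075 for Adam17, -0.15 to 0.0020 for Adam8 and -0.090 to 0.019 for Adam9. Over all alternatives that gave them a value, Adam1b (-0.54 to -0.16), Adam32 (-0.58 to -0.21) and Adam11 (0.056 to 0.20) kept their sign. So did Adam6 (-0.19 to -0.014), Adam28 (0.0088 to 0.19) and Adam33 (0.0073 to 0.067), whose ratios were smaller.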
